A study of Mus musculus with 23 samples.

Results

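The nuclear genes for the subunits of respiratory complexes II, III and IV and of ATP synthase (complex V) were followed in mouse connecting tubule and cortical collecting duct. Members were the protein-coding genes of the count table whose symbol begins with Uqcr, Atp5 or Cox4 to Cox8 followed by a letter, together with Sdha, Sdhb, Sdhc, Sdhd and Cyc1. This gave 49 of 54393 genes, of which 4 belong to complex II, 9 to complex III, 18 to complex IV and 18 to complex V. The rule uses gene symbols and gene types only. Tubules were dissected by hand from mice that all carried Pax8-rtTA, TRE-LC-1 and MRflox/flox, that is, a floxed gene for the mineralocorticoid receptor (Nr3c2) and a Cre that doxycycline switches on. Pax8-rtTA drives that Cre along the renal tubule as a whole, so deletion was not limited to the dissected segments. The KO-LK group (n = 6 libraries) was knockout mice on a low potassium diet, the KO-NK group (n = 6) knockout mice on a normal potassium diet, the CT-HK group (n = 6) controls on a high potassium diet and the CT-NK group (n = 5) controls on a normal potassium diet, each for 4 days. Doxycycline was given to knockout mice at 2 mg/ml in drinking water with 5% sucrose. That lasted 2 weeks, and a washout of 2 weeks on a rescue diet followed. Controls drank 5% sucrose water without doxycycline, so exposure to doxycycline and loss of the receptor cannot be told apart in these comparisons, and the labels do not say whether controls ate the rescue diet. The labels number the replicates and do not say whether they were different animals. Tests therefore cover the spread among libraries, which may be technical.

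In the inner mitochondrial membrane, complex II takes electrons from succinate, complex III passes them from ubiquinol to cytochrome c, and complex IV passes them on to oxygen. Complexes III and IV pump protons, and ATP synthase makes ATP as protons flow back. Complex II is built from nuclear-encoded proteins alone, whereas the other complexes also hold subunits encoded in mitochondrial DNA. In the distal nephron the ATP feeds the sodium-potassium pump and the proton pumps of intercalated cells. In bulk tubules, fewer cells of a type and less RNA per cell cannot be told apart.

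Libraries held 16158408 to 34154475 estimated counts. Nr3c2, the targeted gene, was at 34.2 to 74.1 CPM (counts scaled to library size with TMM factors) in KO-LK and 47.7 to 71.5 CPM in KO-NK libraries, against 70.2 to 145 CPM in CT-HK and 66.6 to 151 CPM in CT-NK libraries. On TPM, the length-scaled unit that the authors deposited and which is not scaled by TMM, it was at 21.8 to 47.5 in KO-LK and 26.6 to 42.4 in KO-NK libraries, against 23.01 to 47.7 in CT-HK and 22.9 to 55.2 in CT-NK libraries, so the ranges overlapped on that scale. A gene-level count also holds reads from exons outside the floxed part, which the labels do not give. The 10 principal cell markers, among them Aqp2 and Fxyd4, summed to 7538 to 9923 CPM in KO-LK and 4929 to 13074 CPM in KO-NK libraries, against 7724 to 12411 CPM in CT-HK and 5509 to 11350 CPM in CT-NK libraries, so principal cell markers were present in every library.

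In both knockout groups the nuclear subunit genes of all 4 complexes were at lower levels than in both control groups. The 49 genes together held 19059 ± 2756 CPM in KO-LK and 20773 ± 4633 CPM in KO-NK libraries, against 34898 ± 5270.5 CPM in CT-HK and 31151 ± 4750.5 CPM in CT-NK libraries (mean ± SD, n = 6, 6, 6 and 5). The highest knockout library, KO-NK replicate 6, held 25115 CPM and the lowest control library, CT-NK replicate 4, held 26182 CPM, so the sum over all 4 complexes did not overlap between knockout and control libraries on CPM. On TPM it did: the highest knockout library, KO-NK replicate 4, held 36923 TPM and the lowest control library, CT-HK replicate 6, held 34276 TPM. KO-NK replicate 3 was the lowest of all at 12150 CPM. Within groups the spread was wide: CT-HK libraries ran over 26943 to 42259 CPM and KO-NK libraries over 12150 to 25115 CPM.

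Complex II genes summed to 1638 ± 237 CPM in KO-LK and 1763 ± 437 CPM in KO-NK libraries, against 3214 ± 474 CPM in CT-HK and 2799 ± 433 CPM in CT-NK libraries. For complex III the sums were 3136 ± 449.5 CPM in KO-LK and 3457 ± 789 CPM in KO-NK libraries, against 5878 ± 835 CPM in CT-HK and 5464 ± 630.5 CPM in CT-NK libraries. For complex IV they were 4102 ± 689 CPM in KO-LK and 4280.2 ± 969 CPM in KO-NK libraries, against 7697 ± 1351 CPM in CT-HK and 6949 ± 1284 CPM in CT-NK libraries. The ATP synthase genes, the most abundant of the 4 sets, held 10182 ± 1446 CPM in KO-LK and 11272 ± 2476 CPM in KO-NK libraries, against 18109 ± 2689 CPM in CT-HK and 15939 ± 2904 CPM in CT-NK libraries. On CPM, KO-NK replicate 6 was above the lowest CT-NK library for complex IV (5501 against 5120 CPM) and for complex V (13403 against 12720 CPM), while the complex II and complex III sums did not overlap between knockout and control libraries. On CPM all 4 sums, which share libraries and scaling factors, had KO-LK lowest, then KO-NK, then CT-NK and CT-HK highest. In none of them did the 2 knockout groups or the 2 control groups differ by more than the spread between their libraries. On TPM CT-NK averaged above CT-HK for every complex, as at 1630 against 1560 TPM for complex II and 17248 against 16472 TPM for complex V.

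**Figure D1:**
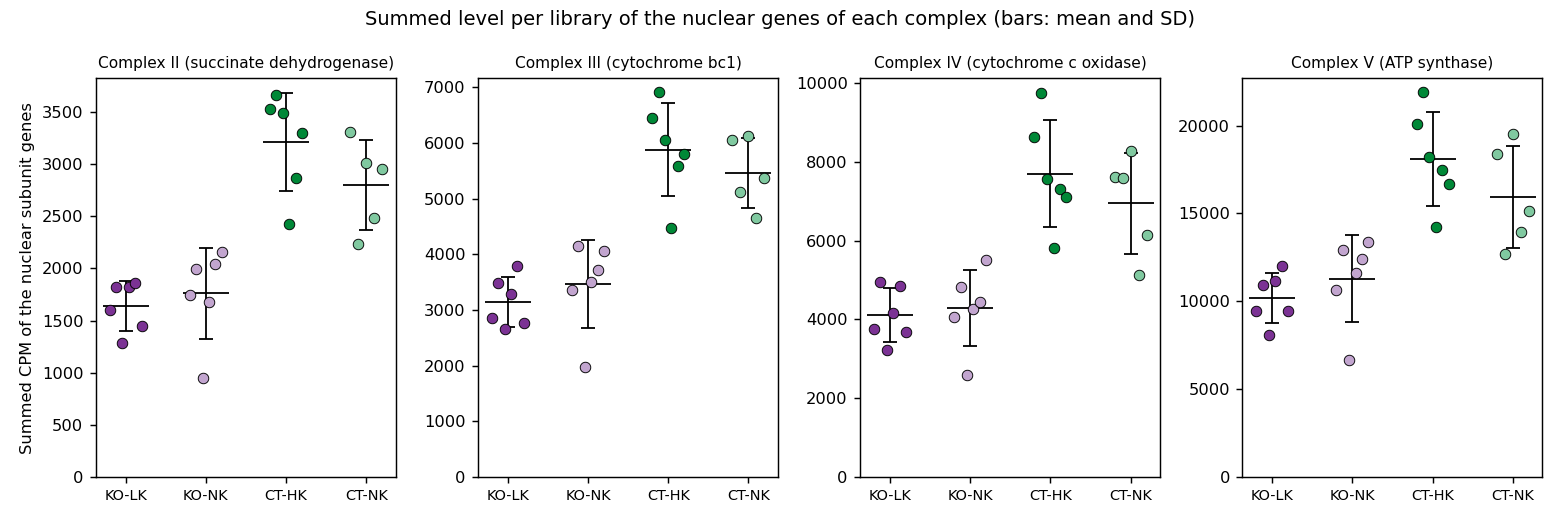
Summed CPM of the nuclear subunit genes of each complex (y axis) in each library (points), by group (x axis), with bars for the mean and SD over 6 KO-LK, 6 KO-NK, 6 CT-HK and 5 CT-NK libraries. Most knockout libraries lie below the control libraries in every panel, with overlap for complexes IV and V, and the lowest point of each panel is KO-NK replicate 3, at 1970 CPM for complex III.

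Of the 49 members, 44 passed the filter on low counts, and every test was fitted across all 25829 genes that passed it. In KO-NK against CT-NK, where the potassium diet was the same, 20 members fell and none rose at an edgeR adjusted p under 0.05 (2 of 4 in complex II, 6 of 9 in complex III, 6 of 14 in complex IV and 6 of 17 in complex V), while 1.7% of all genes were called, 0.763% lower and 0.937% higher. A further comparison that shares no library with this one, KO-LK against CT-HK, had 38 members lower and none higher (4, 8, 11 and 15 by complex), against 5.49% of all genes called, 3.29% lower and 2.2% higher. There the diet differed as well as the genotype, so the 2 cannot be told apart. Both comparisons come from 1 fit of all 23 libraries, with 1 estimate of the spread and joint scaling, so they are not independent. With only the groups compared, 8 members were called in KO-NK against CT-NK (1.07% of all genes) and 38 in KO-LK against CT-HK (13.9%). The median log2 fold change over the 44 members was -0.69 in KO-NK against CT-NK, where the median over all genes was 0.15, and -0.90 in KO-LK against CT-HK, where it was -0.01. Of the 44, 43 and 42 lay below 0 in the 2 comparisons. The count in KO-NK against CT-NK turned on single libraries: without CT-NK replicate 1 it was 6, without CT-NK replicate 3 it was 7, without CT-NK replicate 2 it was 10, without CT-NK replicate 5 it was 11, 13 without KO-NK replicate 1, and 30 without KO-NK replicate 3.

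The crossed comparisons reuse the same libraries, and in each of them the diet differed as well as the knockout. KO-LK against CT-NK had 28 members lower and none higher (2.04% of all genes called, 1.13% lower and 0.914% higher), with a median of -0.78. That count fell to 15 without CT-NK replicate 3, 17 without CT-NK replicate 1 and 18 without CT-NK replicate 5 or without KO-LK replicate 3. KO-NK against CT-HK had 36 members lower and none higher (5.78% called, 3.32% lower and 2.46% higher), with a median of -0.82. Over all 23 libraries, the knockout groups, on low or normal potassium, were set against the control groups, on high or normal potassium. Diet thus differed between the 2 sides of this comparison, called knockout against control libraries below. In it 38 members fell and none rose (10.5% called, 5.86% lower and 4.67% higher), with a median of -0.80, and leaving out any 1 library gave 38 or 39. By complex that median was -0.89 for complex II, -0.84 for complex III, -0.81 for complex IV and -0.71 for complex V. No test of a difference between complexes was made.

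**Figure D2:**
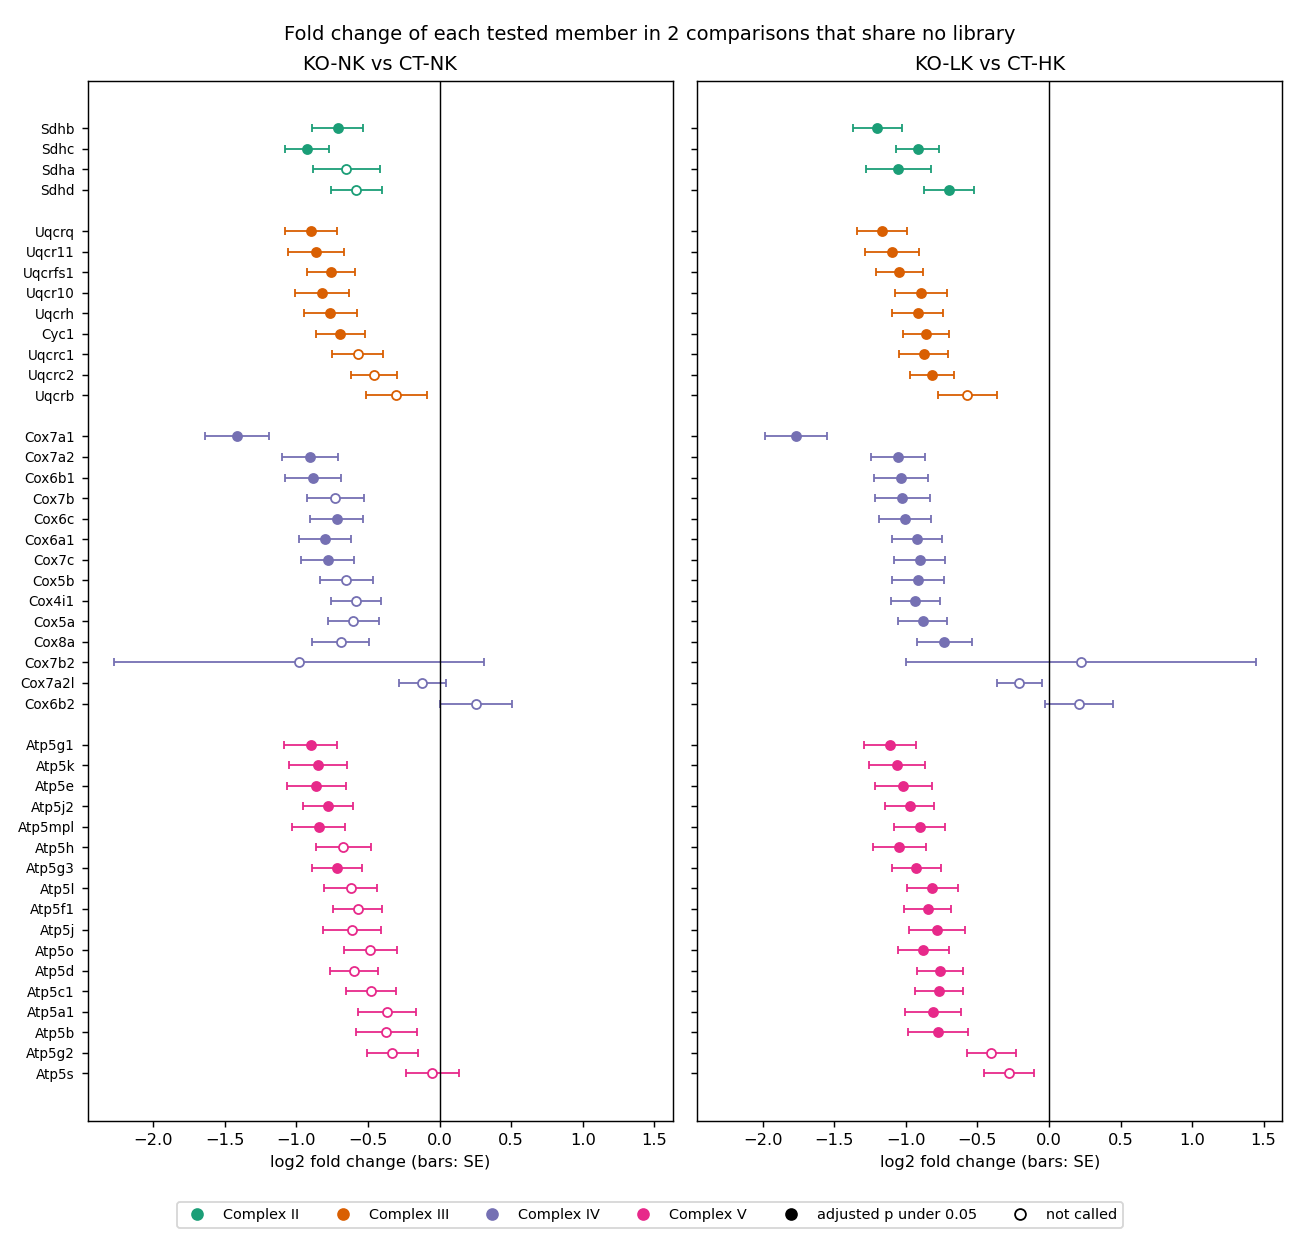
Log2 fold change with its SE (x axis) of each of the 44 tested members (y axis, by complex) in KO-NK against CT-NK (left) and KO-LK against CT-HK (right), which share no library. Filled points have an adjusted p under 0.05; Cox7a1 lies farthest to the left in both panels, and Cox6b2 lies to the right of 0 in both.

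Promoter sequence was examined because the members moved together. Nuclear respiratory factor 1 (NRF1), the ETS-family factor GABP (also called NRF2), YY1 and the estrogen-related receptors are textbook regulators of nuclear respiratory genes. RefSeq promoters on GRCm38.p6, 250 bases before to 50 after each start, were found for 36 of the 49 members and for 27025 genes in all. On both strands, the NRF1 motif (GCGCA, any base, then GCGC) was present in 10 of the 36 members (27.8%) and in 5.2% of all promoters, and CCGGAAG (ETS) in 12 (33.3%) and in 9.9%. AANATGGC (YY1) was found in 5 (13.9%) against 7.0% of all promoters, and TCAAGGTCA (estrogen-related receptor) in 2 (5.6%) against 0.5%. At least 1 of the 4 was present in 22 of 36 member promoters (61.1%) and in 19.8% of all. The ETS and YY1 motifs can share the bases AAG where they stand side by side. At least 1 of the 4 motifs was present in 22 of the 30 promoters of the other subunits. None was found in the 6 promoters of isoform or accessory genes, Cox7a1 among them. By complex, promoters with a match numbered 3 of 3, 3 of 5, 4 of 13 and 12 of 15 for complexes II to V. A match is a run of letters, not evidence of binding. Stretches just upstream of the start are shown for members whose values are given below, with matches in capitals, read 5′ to 3′ on the gene's own strand, where CTTCCGG is the ETS motif on the opposite strand. Sdha is chr13:74350241-74350360 (minus strand), Sdhd chr9:50603850-50603949 (minus strand), Uqcrh chr4:116075071-116075130 (minus strand), Cox6a1 chr5:115348959-115349138 (minus strand), Atp5h chr11:115419920-115420079 (minus strand) and Atp5g2 chr15:102671048-102671107 (minus strand), each with at least 1 match, and Cox7a1 chr7:30184071-30184170 (plus strand), with none.
Sdha: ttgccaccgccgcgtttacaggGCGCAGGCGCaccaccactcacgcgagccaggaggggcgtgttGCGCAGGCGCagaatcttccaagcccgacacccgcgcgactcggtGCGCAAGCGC
Sdhd: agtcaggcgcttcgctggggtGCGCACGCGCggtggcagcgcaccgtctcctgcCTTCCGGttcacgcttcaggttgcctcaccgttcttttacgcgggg
Uqcrh: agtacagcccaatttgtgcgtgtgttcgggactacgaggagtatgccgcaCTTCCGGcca
Cox6a1: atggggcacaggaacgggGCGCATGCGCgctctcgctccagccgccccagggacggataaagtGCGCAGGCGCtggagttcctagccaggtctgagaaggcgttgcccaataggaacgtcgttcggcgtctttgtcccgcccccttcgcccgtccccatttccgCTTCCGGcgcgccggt
Cox7a1: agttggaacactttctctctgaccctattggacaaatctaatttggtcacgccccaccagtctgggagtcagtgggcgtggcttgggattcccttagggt
Atp5h: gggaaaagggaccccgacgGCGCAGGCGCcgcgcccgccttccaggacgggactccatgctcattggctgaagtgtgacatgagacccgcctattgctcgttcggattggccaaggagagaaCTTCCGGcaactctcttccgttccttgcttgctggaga
Atp5g2: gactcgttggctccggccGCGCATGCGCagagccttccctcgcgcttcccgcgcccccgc
Of the genes shown, Cox7a1, with no match, had the lowest log2 fold change of all members, and Atp5g2, with an NRF1 match, was not called in any comparison.

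Complex II, succinate dehydrogenase, also works in the citrate cycle. All 4 of its genes fell in KO-LK against CT-HK, while Sdhb and Sdhc were also called in KO-NK against CT-NK. Sdhc encodes a membrane anchor that holds haem and binds ubiquinone. Its lowest, median and highest CPM were 85.9, 123 and 138 in KO-LK and 77.2, 124 and 148 in KO-NK libraries, against 175, 224 and 255 in CT-HK libraries and 232, 243, 253, 199.6 and 227 in the 5 CT-NK libraries. Every knockout library lay below every control library. The log2 fold change of Sdhc was -0.93 ± 0.16 (SE) in KO-NK against CT-NK (edgeR adjusted p = 0.00183) and -0.92 ± 0.15 in KO-LK against CT-HK (edgeR adjusted p = 0.00039). Sdhb, the iron-sulphur subunit, was at 254, 358 and 435 in KO-LK and 249.4, 438 and 544 in KO-NK libraries, against 641, 834 and 962 in CT-HK libraries and 752, 593, 799.9, 617 and 738 in the 5 CT-NK libraries (lowest, median and highest CPM). Here too all knockout libraries were below all control libraries, with log2 fold changes of -0.71 ± 0.18 (edgeR adjusted p = 0.0365) and -1.20 ± 0.17 (edgeR adjusted p = 9.3e-05) in the same 2 comparisons. The Sdhb call in KO-NK against CT-NK was lost in 4 of the 23 fits that left out 1 library each.

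Sdha, the flavoprotein that oxidises succinate and whose promoter stretch holds 3 NRF1 matches, had lowest, median and highest CPM of 505, 649.8 and 772 in KO-LK and 328, 723 and 829 in KO-NK libraries, against 929.8, 1402 and 1522 in CT-HK libraries and 1468, 509, 991, 982 and 1236 in the 5 CT-NK libraries. CT-NK replicate 2, at 509 CPM, lay among the knockout libraries, and the other control libraries lay above all of them. The log2 fold change was -0.65 ± 0.24 in KO-NK against CT-NK (edgeR adjusted p = 0.2) and -1.05 ± 0.23 in KO-LK against CT-HK (edgeR adjusted p = 0.00521). Sdhd, the second membrane anchor, was at 429, 518 and 641 in KO-LK and 298, 582 and 696 in KO-NK libraries, against 684, 863 and 1073 in CT-HK libraries and 856, 885, 972, 689.7 and 751 in the 5 CT-NK libraries (CPM, given likewise). Its values overlapped between KO-NK and CT-NK libraries but not between KO-LK and CT-HK libraries. Sdhd was at -0.58 ± 0.18 (edgeR adjusted p = 0.109, not called) and -0.70 ± 0.17 (edgeR adjusted p = 0.0146) on the log2 scale, and the call in KO-LK against CT-HK was lost without KO-LK replicate 1, 2, 3 or 4.

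In complex III, 8 of 9 genes fell in KO-LK against CT-HK and 6 in KO-NK against CT-NK. Cyc1 encodes cytochrome c1, which hands electrons to cytochrome c, and was at 380.2, 459 and 522 in KO-LK and 284, 538 and 644 in KO-NK libraries, against 636, 875 and 930 in CT-HK libraries and 897, 866, 883, 679 and 820.1 in the 5 CT-NK libraries (lowest, median and highest CPM). KO-NK libraries lay below CT-NK libraries and KO-LK libraries below CT-HK libraries without overlap. Its log2 fold change was -0.69 ± 0.17 (edgeR adjusted p = 0.0337) and -0.86 ± 0.16 (edgeR adjusted p = 0.00166). The Cyc1 call in KO-NK against CT-NK was lost in 5 of the 23 fits that left out 1 library each, and with the replicate block. Uqcrfs1, the Rieske iron-sulphur protein, was at 287, 387 and 436 in KO-LK and 243, 478 and 518 in KO-NK libraries, against 647, 766 and 936 in CT-HK libraries and 801, 793, 839, 664 and 671 in the 5 CT-NK libraries (CPM, in the same order). All knockout libraries were below all control libraries. The log2 fold change of Uqcrfs1 was -0.76 ± 0.17 (edgeR adjusted p = 0.0189) in KO-NK against CT-NK and -1.05 ± 0.16 (edgeR adjusted p = 0.00027) in KO-LK against CT-HK.

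The core proteins on the matrix side of complex III, Uqcrc1 and Uqcrc2, fell in KO-LK against CT-HK (-0.87 and -0.82 log2) and were not called in KO-NK against CT-NK (-0.57 and -0.46). Among the small supernumerary subunits, Uqcrq had the lowest log2 fold change of the complex in both comparisons. Uqcrq was at 159, 188 and 263 in KO-LK and 121, 222 and 271 in KO-NK libraries, against 339.9, 438 and 570.5 in CT-HK libraries and 426, 433, 439.8, 312 and 377 in the 5 CT-NK libraries (lowest, median and highest CPM). Knockout and control libraries did not overlap. The log2 fold change was -0.90 ± 0.18 (edgeR adjusted p = 0.00928) in KO-NK against CT-NK and -1.17 ± 0.17 (edgeR adjusted p = 0.00016) in KO-LK against CT-HK. Uqcr11, Uqcr10 and Uqcrh, the hinge protein, also fell in both, with log2 fold changes of -0.86, -0.82 and -0.76 in KO-NK against CT-NK and -1.10, -0.90 and -0.92 in KO-LK against CT-HK.

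Uqcrb, a small subunit next to the ubiquinone site, was the exception in complex III. Its lowest, median and highest CPM were 259, 374 and 559 in KO-LK and 223, 424 and 499 in KO-NK libraries, against 404, 551 and 788 in CT-HK libraries and 573, 427, 611, 398 and 451 in the 5 CT-NK libraries, and the groups overlapped in every comparison. The log2 fold change was -0.30 ± 0.21 (edgeR adjusted p = 0.708) in KO-NK against CT-NK, -0.57 ± 0.21 (edgeR adjusted p = 0.12) in KO-LK against CT-HK and -0.44 ± 0.15 (edgeR adjusted p = 0.0616) over all knockout against all control libraries. On TPM it was at 1249 ± 242 TPM in KO-LK and 1260.3 ± 208 TPM in KO-NK libraries, against 1229 ± 134 TPM in CT-HK and 1212 ± 193 TPM in CT-NK libraries.

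**Figure D3:**
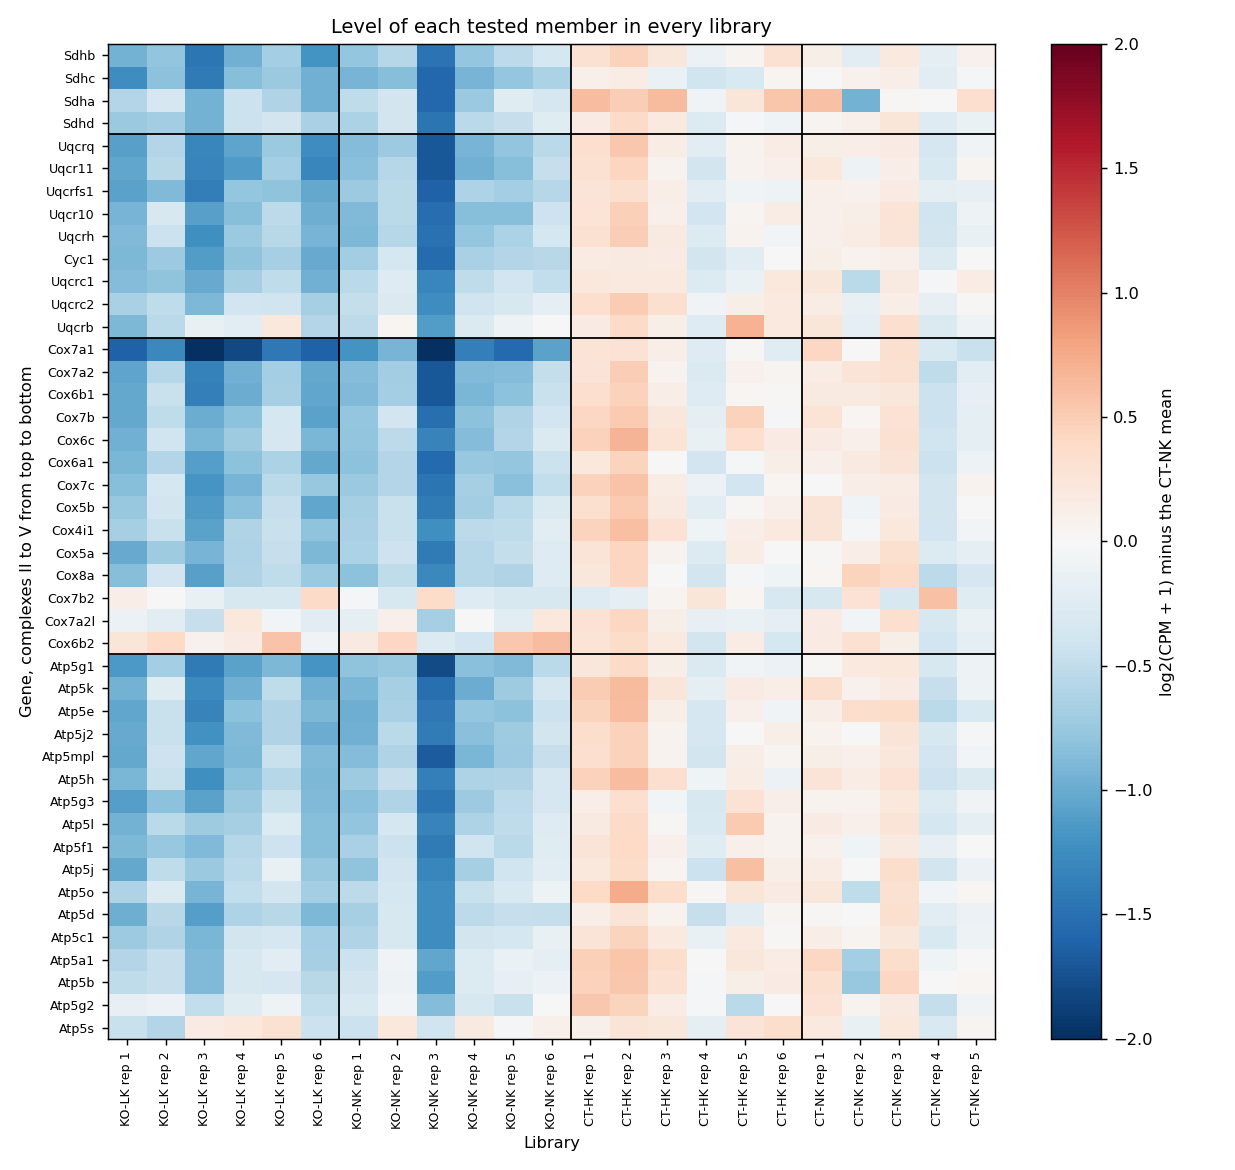
Level of each tested member (rows, complexes II to V from top to bottom) in every library (columns, by group), as log2(CPM + 1) minus the CT-NK mean. Most rows are blue (lower) in the KO-LK and KO-NK columns, the KO-NK replicate 3 column is the darkest blue, and the rows of Cox7a2l, Cox6b2 and Atp5s are pale.

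Complex IV held the member with the lowest log2 fold change, the one member that lay above 0 in every knockout comparison, and several isoform genes that were almost silent. Cox4i1, the main isoform of the regulatory subunit 4, was at 582, 790.3 and 904 in KO-LK and 522, 856 and 1044 in KO-NK libraries, against 1154, 1446 and 1862 in CT-HK libraries and 1463, 1196, 1416, 940.1 and 1181 in the 5 CT-NK libraries (lowest, median and highest CPM). KO-LK and CT-HK libraries did not overlap, whereas KO-NK replicate 6 lay above the lowest CT-NK library. Cox4i1 fell in KO-LK against CT-HK, with a log2 fold change of -0.93 ± 0.17 (edgeR adjusted p = 0.00126), and was at -0.58 ± 0.18 in KO-NK against CT-NK (edgeR adjusted p = 0.104). The matrix-side subunits Cox5a and Cox5b followed it, at -0.88 and -0.91, both called, in KO-LK against CT-HK and -0.60 and -0.65, neither called, in KO-NK against CT-NK. Cox8a, a small membrane subunit, was at -0.73 (called) and -0.69 (not called). The Cox8a call in KO-LK against CT-HK (edgeR adjusted p = 0.0241) was lost in 11 of the 23 fits that left out 1 library each, those without KO-LK replicate 1, 3, 4, 5 or 6, KO-NK replicate 2, 4, 5 or 6, or CT-HK replicate 1 or 2.

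Of the other small subunits, Cox6a1, whose promoter stretch holds 2 NRF1 matches and 1 ETS match, Cox6b1, Cox6c, Cox7a2 and Cox7c fell in both comparisons. Their log2 fold changes in KO-NK against CT-NK were -0.80, -0.88, -0.72, -0.90 and -0.78, and in KO-LK against CT-HK -0.92, -1.03, -1.01, -1.05 and -0.90. Cox6c had an edgeR adjusted p of 0.0478 in KO-NK against CT-NK, and that call was lost in 9 of the 23 fits without 1 library, those without KO-NK replicate 1 or 4, CT-HK replicate 1, 3 or 5, or CT-NK replicate 1, 2, 3 or 5. It was lost as well in several other fits, among them those with the replicate block, the transcript length offset, limma on TPM and only the groups compared. Cox7b was called in KO-LK against CT-HK (-1.02) and not in KO-NK against CT-NK (-0.73).

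Subunit 7a is encoded by isoform genes, Cox7a1, best known from heart and skeletal muscle, and Cox7a2, found in most tissues. Cox7a1 had the lowest log2 fold change of all members in all 4 comparisons of a knockout with a control group. Its lowest, median and highest CPM were 9.04, 17.1 and 21.7 in KO-LK and 10.8, 21.9 and 28.1 in KO-NK libraries, against 45.2, 57.8 and 66.4 in CT-HK libraries and 73.0, 54.9, 68.3, 43.7 and 39.8 in the 5 CT-NK libraries. The highest knockout library, at 28.1 CPM, was below the lowest control library, at 39.8 CPM. The log2 fold change of Cox7a1 was -1.41 ± 0.22 in KO-NK against CT-NK (edgeR adjusted p = 0.0012) and -1.77 ± 0.22 in KO-LK against CT-HK (edgeR adjusted p = 2e-05). Cox7a2 was at 187, 240.2 and 322 in KO-LK and 147, 262 and 346 in KO-NK libraries, against 391, 508 and 677 in CT-HK libraries and 529.9, 575, 594, 337 and 412 in the 5 CT-NK libraries (CPM, in the same order), with KO-LK below CT-HK libraries without overlap and KO-NK overlapping CT-NK libraries. It fell by 0.90 ± 0.20 (edgeR adjusted p = 0.0154) and 1.05 ± 0.19 (edgeR adjusted p = 0.00101) on the log2 scale. Per length, Cox7a1 averaged 86.3 ± 22.7 TPM in KO-LK and 105 ± 23.7 TPM in KO-NK libraries, against 198 ± 34.6 TPM in CT-HK and 222 ± 55.0 TPM in CT-NK libraries, and Cox7a2 averaged 688 ± 101 TPM in KO-LK and 679.9 ± 110.4 TPM in KO-NK libraries, against 949 ± 105 TPM in CT-HK and 1031 ± 305 TPM in CT-NK libraries. Cox7a1 was thus the less abundant isoform in every group, and on TPM it was the only member whose knockout and control libraries did not overlap at all; 0.0542% of all genes were lower in this way and 2.46% higher.

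Cox7a2l shares the family name but encodes a factor that joins complexes III and IV into supercomplexes. It was not called in any comparison, with log2 fold changes of -0.12 ± 0.16 in KO-NK against CT-NK (edgeR adjusted p = 0.876) and -0.21 ± 0.16 in KO-LK against CT-HK (edgeR adjusted p = 0.676), values that turn positive on TPM and on unscaled library totals. Cox6b2, the testis isoform of subunit 6b, was low, at 5.53 ± 1.05 CPM in KO-LK and 5.48 ± 1.77 CPM in KO-NK libraries, against 4.78 ± 1.20 CPM in CT-HK and 4.59 ± 1.03 CPM in CT-NK libraries, and its log2 fold change was 0.25 ± 0.25 (edgeR adjusted p = 0.83) and 0.21 ± 0.24 (edgeR adjusted p = 0.923). Cox7b2, another testis isoform, passed the filter at a mean of 0.146 to 0.288 CPM per group and was not called. The filter removed Cox4i2, Cox6a2, Cox8b and Cox8c, isoforms known from lung, muscle or testis, and a second Atp5o record (ENSMUSG00000116933). Each of those 5 averaged below 1 CPM in every group.

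In complex V, 15 of 17 tested genes fell in KO-LK against CT-HK and 6 in KO-NK against CT-NK. Atp5b, the catalytic beta subunit and the member with the highest CPM, was at 2754, 3647 and 4095 in KO-LK and 2352, 4404 and 4742 in KO-NK libraries, against 5042, 6024 and 7438 in CT-HK libraries and 6352, 3011, 6822, 5061 and 5245 in the 5 CT-NK libraries (lowest, median and highest). KO-LK libraries lay below CT-HK libraries without overlap, and CT-NK replicate 2, at 3011 CPM, lay among the knockout libraries. Its log2 fold change was -0.37 ± 0.21 (edgeR adjusted p = 0.57) in KO-NK against CT-NK and -0.78 ± 0.21 (edgeR adjusted p = 0.0248) in KO-LK against CT-HK. The Atp5b call was lost in 8 of the fits without 1 library, those without KO-LK replicate 1, 3, 4, 5 or 6 or CT-HK replicate 1, 2 or 3. Atp5a1, the alpha subunit, was at 1383, 1782 and 2181 in KO-LK and 1249.9, 2196 and 2424 in KO-NK libraries, against 2555, 3121 and 3753 in CT-HK libraries and 3406, 1596, 3271, 2410.3 and 2561 in the 5 CT-NK libraries (CPM, given likewise), with CT-NK replicate 2 among the knockout libraries and CT-NK replicate 4 just under the highest of them. It was at -0.37 ± 0.20 (edgeR adjusted p = 0.53) and -0.81 ± 0.20 (edgeR adjusted p = 0.0124) on the log2 scale. The central stalk genes Atp5c1 (gamma) and Atp5d (delta) were called in KO-LK against CT-HK (-0.77 and -0.76) and not in KO-NK against CT-NK (-0.48 and -0.60), whereas Atp5e (epsilon) was called in both (-1.02 and -0.86). The peripheral stalk genes Atp5o (OSCP), Atp5f1 (subunit b), Atp5h (subunit d) and Atp5j (F6) fell in KO-LK against CT-HK, with log2 fold changes of -0.88, -0.85, -1.04 and -0.78, and none was called in KO-NK against CT-NK (-0.49, -0.57, -0.67 and -0.61).

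The proton-carrying c ring is made of a protein encoded by 3 genes, Atp5g1, Atp5g2 and Atp5g3, which differ in their import sequence. Atp5g1 was at 317, 394 and 529.8 in KO-LK and 246, 481 and 587 in KO-NK libraries, against 696, 867 and 1114 in CT-HK libraries and 866, 972, 984, 683 and 789 in the 5 CT-NK libraries (lowest, median and highest CPM), with all knockout below all control libraries. Its log2 fold change was -0.90 ± 0.19 (edgeR adjusted p = 0.0106) in KO-NK against CT-NK and -1.11 ± 0.18 (edgeR adjusted p = 0.00037) in KO-LK against CT-HK. Atp5g3 was at 420, 502 and 665 in KO-LK and 327, 573 and 718 in KO-NK libraries, against 725, 985 and 1149.9 in CT-HK libraries and 953, 946, 1049, 751 and 859 in the 5 CT-NK libraries (CPM, given likewise), again without overlap. Atp5g3 fell by 0.72 ± 0.18 (edgeR adjusted p = 0.0365) and 0.93 ± 0.17 (edgeR adjusted p = 0.00127) on the log2 scale. The Atp5g3 call in KO-NK against CT-NK was lost in 5 of the 23 fits that left out 1 library each. Atp5g2, by contrast, was at 58.8, 72.1 and 77.3 in KO-LK and 45.02, 66.9 and 83.8 in KO-NK libraries, against 56.9, 87.6 and 121 in CT-HK libraries and 102, 87.6, 94.1, 59.6 and 79.3 in the 5 CT-NK libraries (CPM, given likewise), and its groups overlapped in every comparison. It was not called, with -0.33 ± 0.18 (edgeR adjusted p = 0.516) and -0.40 ± 0.17 (edgeR adjusted p = 0.22) on the log2 scale, and no test of the difference between the 3 genes was made. On TPM Atp5g2 held 141 ± 15.6 TPM in KO-LK and 133 ± 15.7 TPM in KO-NK libraries, against 125 ± 35.5 TPM in CT-HK and 131 ± 25.8 TPM in CT-NK libraries, compared with 1059 ± 156 TPM in KO-LK and 1157 ± 229 TPM in KO-NK libraries, against 1539.8 ± 242 TPM in CT-HK and 1731 ± 435 TPM in CT-NK libraries for Atp5g1 and 1057 ± 113 TPM in KO-LK and 1124 ± 170.5 TPM in KO-NK libraries, against 1329 ± 82.9 TPM in CT-HK and 1467 ± 287 TPM in CT-NK libraries for Atp5g3. The gene with the lowest TPM of the 3 was the one with no call.

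The small membrane subunits Atp5j2 (f), Atp5k (e) and Atp5mpl, a small proteolipid, fell in both comparisons. Their log2 fold changes were -0.78, -0.85 and -0.84 in KO-NK against CT-NK and -0.97, -1.06 and -0.90 in KO-LK against CT-HK. Atp5l (subunit g) was called in KO-LK against CT-HK (-0.82) and not in KO-NK against CT-NK (-0.62). Atp5s, a coupling factor that is not a core subunit, was not called (-0.05 and -0.28). The count table also holds processed pseudogenes named after Uqcrh, Cox6c, Atp5l, Atp5k and Atp5c1. Estimated counts of those genes may depend on how shared reads were divided. Sequences were not compared, and pseudogenes under other names were not looked for.

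The 2 diet comparisons gave no call among the members. In KO-LK against KO-NK, 0 members were called by edgeR and by DESeq2, and 0 of 44 had an unadjusted p under 0.05. Over the whole table edgeR called no gene there (0%) and DESeq2 called 25, and by edgeR 732 genes had an unadjusted p under 0.05. The members' median was -0.07, against -0.13 over all genes, with Cox7a1 at -0.34 ± 0.21 and Sdhb at -0.28 ± 0.17. In CT-HK against CT-NK, edgeR and DESeq2 again called 0 members. Over the whole table edgeR called no gene (0%) and DESeq2 called 20, and by edgeR 927 genes had an unadjusted p under 0.05. The members' median was 0.12, against -0.01 over all genes, and 39 of 44 lay above 0. Sdha had 0.35 ± 0.24 and Atp5o 0.31 ± 0.19 in that comparison, each under 2 SE.

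Set beside each other per length, the members spanned a wide range of TPM. Among genes tested in KO-LK libraries the levels ran from 2483 TPM for Atp5b and 2159 TPM for Cox8a to 18.9 TPM for Atp5s and 0.792 TPM for Cox7b2, with Sdhc, at 89.2 TPM, the lowest constitutive subunit. The 49 genes summed to 31965 ± 3023 TPM in KO-LK and 33012 ± 4621 TPM in KO-NK libraries, against 39948 ± 4435 TPM in CT-HK and 41891 ± 8249 TPM in CT-NK libraries. Over all genes the median log2 fold change on this scale was 0.32 in knockout against control libraries. With limma on log2(TPM + 1), 29 members were lower and 2 higher (Cox7a2l and Cox6b2, at 0.30 and 0.64) in knockout against control libraries. That fit called 41.3% of all genes, 1.82% lower, and 95.6% of its calls were on the higher side. In KO-LK against CT-HK it called 19 members lower and 2 higher, where it called 36% of all genes and 1.23% lower. In KO-NK against CT-NK it called 15 members lower and none higher, where it called 17.5% of all genes and 0.859% lower. On CPM 34 members had no overlap in KO-LK against CT-HK and 17 in KO-NK against CT-NK, all of them lower in the knockout (2.33% and 1% of all genes did so). On TPM 5 and 8 members were lower without overlap in the same comparisons, as were 0.314% and 0.294% of all genes. Cox6b2 was higher without overlap in KO-LK against CT-HK, as were 14.6% of all genes on that scale.

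**Figure D4:**
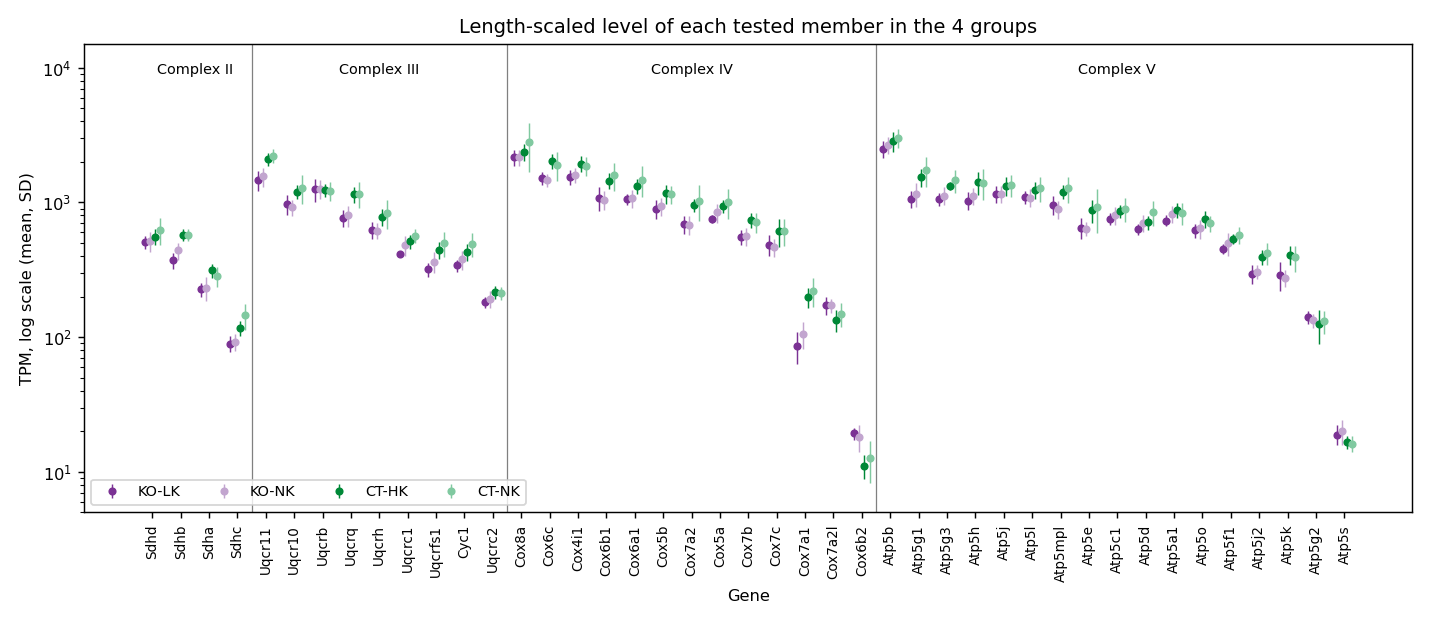
TPM (log scale, mean and SD over libraries) of each tested member except Cox7b2, which lies near 0, in KO-LK, KO-NK, CT-HK and CT-NK (left to right within a gene). Cox7a1 shows the widest gap between knockout and control groups, at 86.3 and 105 against 198 and 222 TPM, while Uqcrb, Atp5g2 and Cox7a2l show none in the same direction.

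Genes that assemble these complexes lay lower too. In knockout against control libraries, 5.86% of all genes were called lower and 4.67% higher. There 2 of 4 complex II assembly factors fell, 5 of 6 for complex III, 11 of 22 tested for complex IV and 4 of 6 for complex V with its inhibitor, and none rose. Their median log2 fold changes were -0.36, -0.46, -0.32 and -0.51. Sco2, a copper chaperone for complex IV, was at -0.99, Cmc2 at -0.68 and Pet100 at -0.75, all called. Cmc2 and Sco2 were also the complex IV factors called in KO-NK against CT-NK, at -0.57 and -1.03. In that comparison no assembly factor of complexes II, III or V was called, and 0.763% of all genes were called lower. Whether assembly factors and subunits differ was not tested. Cycs, cytochrome c itself, fell by 0.66 on the log2 scale.

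Counts below are from knockout against control libraries unless stated, where 5.86% of all genes were called lower and 4.67% higher. The partner subunits encoded in mitochondrial DNA lay lower as well. Of the 6 in complexes III to V, 4 fell in knockout against control libraries, mt-Cytb at -0.84, mt-Co2 at -0.85, mt-Atp6 at -0.92 and mt-Atp8 at -0.88, while mt-Co1 and mt-Co3 (-0.60 and -0.73) did not pass. All protein genes of mitochondrial DNA together held 88315 ± 27343 CPM in KO-LK and 94485 ± 23652 CPM in KO-NK libraries, against 164570 ± 43920 CPM in CT-HK and 149840 ± 50813 CPM in CT-NK libraries. In the citrate cycle 11 of 13 genes fell, with Mdh2 at -0.71, Idh3g at -0.73 and Cs, citrate synthase, at -0.55. Of the 14 regulators of nuclear respiratory genes, 3 fell, namely Ppara at -1.21, Esrra, the estrogen-related receptor alpha, at -0.85 and Tfam, which maintains mitochondrial DNA, at -0.38. The other 11 were not called, among them Ppargc1a (-0.11), Nrf1 (0.09), Gabpa (0.30) and Yy1 (0.19). In KO-NK against CT-NK none of the 14 regulators was called, nor any of the 6 mitochondrially encoded genes, and 1 of the 13 citrate cycle genes (Idh3g, -0.66) fell. Of all genes, 0.763% were called lower there.

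Markers of some other tubule cells differed between knockout and control libraries, some lower and some higher. Over all genes, 5.86% were called lower and 4.67% higher in that comparison. The 20 markers of proximal tubule, whose cells are rich in mitochondria, were all below 0 in knockout against control libraries, 6 of them called, with a median of -2.20. None was at 0 in all libraries of a group, and they summed to 538 to 2131 CPM in KO-LK and 1332 to 7474 CPM in KO-NK libraries, against 350.2 to 41742 CPM in CT-HK and 691 to 23725 CPM in CT-NK libraries. CT-HK replicates 1 to 5 held 350.2 to 1115 CPM of these markers, and 26943 to 42259 CPM of the members. How much of the members' counts came from proximal tubule cells was not tested. With a proximal tubule score in the fit, the members that fell numbered 38 in KO-LK against CT-HK (5.74% of all genes called) and 22 in KO-NK against CT-NK (1.98%). A thick limb score added to that fit gave 38 in KO-LK against CT-HK (4.49%), 10 in KO-NK against CT-NK (1.26%) and 6, in place of 28, in KO-LK against CT-NK (0.6%). Without the 2 libraries richest in these markers, 10 members fell in KO-NK against CT-NK (0.953% of all genes called). The 5 connecting tubule markers also moved: Calb1, S100g and Klk1 fell (-1.89, -2.17 and -1.81 in knockout against control libraries), while Trpv5 and Slc8a1 were not called (0.56 and -0.44). Their sum was 4663 to 18648 CPM in KO-LK and 7745 to 14926 CPM in KO-NK libraries, against 19276 to 63050 CPM in CT-HK and 27645 to 39025 CPM in CT-NK libraries, and its part in the members' result was not tested. CT-HK replicate 6, the control library with the fewest such counts (19276 CPM), held 32897 CPM of the members. That library also held the most proximal tubule marker counts of all libraries (41742 CPM). The lists for 2 neighbouring segments had medians above 0, with 1 gene called in each. The 5 thick ascending limb markers had a median of 0.72 in knockout against control libraries, with 1 called, Cldn16 at 0.72, and sums of 197 to 2222 CPM in KO-LK and 198 to 2718 CPM in KO-NK libraries, against 147 to 1455 CPM in CT-HK and 126 to 1068 CPM in CT-NK libraries. The 4 genes listed for distal convoluted tubule had a median of 0.39. Of them 1 was called, Cldn8 at 1.02, and whether it marks that segment alone was not tested. Slc12a3 (1.16) and Pvalb (-1.29) were not called. The 4 genes summed to 669 to 1911 CPM in KO-LK and 732 to 2192 CPM in KO-NK libraries, against 482 to 719 CPM in CT-HK and 386 to 1023 CPM in CT-NK libraries. The part of either segment in the members' result was not tested beyond the thick limb score. Of the 6 alpha intercalated markers none was called, with sums of 1642 to 2312 CPM in KO-LK and 1077 to 2982 CPM in KO-NK libraries, against 1436 to 2314 CPM in CT-HK and 1428 to 2575 CPM in CT-NK libraries. Of the 4 beta intercalated markers 1 was called lower and none higher, with a median of -0.12. Of the 10 principal cell markers 2 were called higher and none lower, with a median of 0.25.

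**Figure D5:**
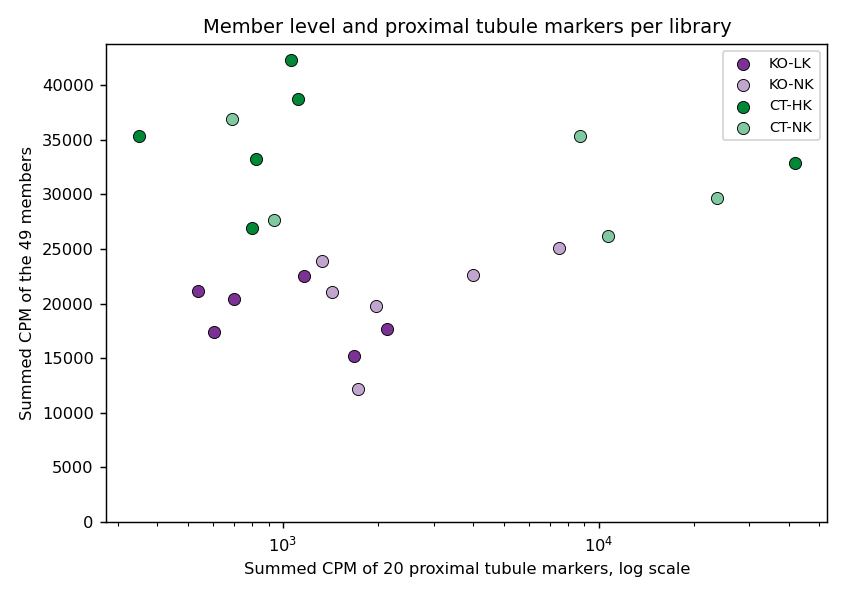
Summed CPM of the 49 members (y axis) against summed CPM of 20 proximal tubule markers (x axis, log scale) in each of the 23 libraries, coloured by group. Every control library lies above every knockout library on the y axis, with CT-HK replicate 3 at 350.2 CPM of markers and 35321 CPM of members. The knockout library with the most marker counts is KO-NK replicate 6, at 7474 CPM of markers and 25115 CPM of members. Only control libraries lie to the right of it, among them CT-NK replicate 4, at 10711 CPM of markers and 26182 CPM of members.

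Some library properties differed between knockout and control libraries too. TMM factors averaged 1.10 in KO-LK and 1.09 in KO-NK libraries, against 0.887 in CT-HK and 0.966 in CT-NK libraries. Most member transcripts are short, and 32 of the 44 have a median transcript length under 1 kb. Among 444 other protein-coding genes of that length with a mean of at least 100 CPM, 38.5% were called lower in knockout against control libraries, with a median log2 fold change of -0.29; 5.86% were in KO-NK against CT-NK and 22.7% in KO-LK against CT-HK. That grouping by length was made after the values had been seen. With an offset for transcript length, 19 members fell in KO-NK against CT-NK (1.57% of all genes called), 34 in KO-LK against CT-HK (5.05%) and 38 in knockout against control libraries (9.51%). On library totals without TMM scaling, 8 libraries held more than 2500 CPM of chemosensory receptor genes, namely 3 KO-LK, 2 KO-NK, 1 CT-HK and 2 CT-NK. Without them 18 members fell in KO-LK against CT-NK, in place of 28 (0.854% of all genes called).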

How the data were processed

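Per the labels' protocols, RNA from hand-dissected connecting tubule and cortical collecting duct of 23 mouse samples was turned into cDNA with SMART-Seq HT and into libraries with Nextera XT. Per the submitters' processing notes, Salmon and GRCm38.p6 were used. The authors deposited estimated counts (expected counts per gene, of which 35.9% of values are not whole) and TPM, which sum to 1000000 per library. Symbols and gene types came from GENCODE M21, which matched all 54393 rows; 8 pseudogene rows that match the symbol patterns were left out.

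Rounded counts entered 1 model with a mean for each of the 4 groups in edgeR 4.0.16, run in R 4.3.3. Genes were filtered by filterByExpr, scaled by TMM and tested by the quasi-likelihood method with 19 residual degrees of freedom. Benjamini-Hochberg adjustment ran over 25829 genes, and 0.05 was the threshold. Where a p-value names no other tool, it is edgeR's. No library was left out, and none of 55 pairs within groups held identical values. Intervals over libraries cover the spread between libraries, with 16158408 to 34154475 estimated counts each. Simulated counts with known changes were used to test the scripts.

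Members named with values were chosen by role, by the 2 smallest p-values of each complex per comparison, or by a sign opposite to their complex; the others are named as remaining members. Members and lists were chosen with earlier results of these data known. Alternatives were DESeq2 1.42.0, other scalings and filters, limma 3.58.1 on log2(TPM + 1) and log2(TPM + 0.1) (genes at 1 TPM or more in 5 libraries), a transcript length offset, a replicate block, marker scores as covariates, and leaving out libraries.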

Additional observations from a re-analysis of the deposited data

Results flagged for a closer look

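Over all groups 152 values were examined, and 6 were flagged. In each of the 6, KO-NK replicate 3 stood apart from the other 5 KO-NK libraries as the lowest. Complex III summed to 1970 CPM there, and the next lowest KO-NK library held 3365 CPM. Cyc1 was at 284 CPM (next lowest 511), Uqcrc1 at 439 CPM (748), Uqcrc2 at 202 CPM (341), Uqcrfs1 at 243 CPM (451) and Atp5b at 2352 CPM (3953). Chance alone marks about 1 group in 20, and no value of the other groups was flagged. The 6 values share 1 library and its scaling factor, so they are not 6 separate cases. The library also had the lowest depth of the series, 16158408 estimated counts, and the highest TMM factor, 1.35. Its share of protein-coding counts was the lowest, 88.8%, and its chemosensory receptor counts the highest, 9122 CPM without TMM scaling. Its principal cell and alpha intercalated marker sums were the lowest, 4929 and 1077 CPM, and its podocyte markers the highest, 266 CPM. Its low values were thus not particular to the members. Leaving out KO-NK replicate 3 moved the members called in KO-NK against CT-NK to 30 of 44, in place of 20.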

How the results depend on the processing

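Over 23 libraries, 38 members were called lower in knockout against control libraries, and each alternative gave a count within 1.5 times of that. Shares of all genes called stand in parentheses. In KO-NK against CT-NK the 20 calls (1.7%) became 34 with DESeq2 (4.53%), 32 on library totals without TMM (8.55%, of which 83.1% higher), 2 with no low-count filter (0.359%), 38 with a filter of 5 CPM in 5 libraries (19.8%), 8 with only the groups compared (1.07%), 10 with proximal tubule and thick limb scores (1.26%), 36 with an alpha intercalated score (5.23%) and 10 without the 2 libraries richest in proximal tubule markers (0.953%). Leaving out single libraries gave 6 to 30. By gene, such fits lost the call in KO-NK against CT-NK 5 times each for Cyc1, Uqcrh, Atp5g3 and Atp5k. They lost it 4 times each for Sdhb and Atp5e, 3 for Cox6a1 and Atp5j2, and 2 for Uqcr11 and Uqcrfs1. Sdhc, Uqcrq, Cox7a1, Cox7a2, Atp5g1 and Atp5mpl kept it in every such fit. In KO-LK against CT-NK the 28 calls (2.04%) became 8 with no filter (0.432%) and 6 with proximal tubule and thick limb scores (0.6%). They became 18 without the libraries rich in chemosensory receptor counts (0.854%), and 15 to 38 when single libraries were left out. Limma on TPM gave 16 calls there at either pseudocount, 15 lower and 1 higher (24.3% and 24.2%). With limma on TPM, KO-NK against CT-HK gave 15 calls, 13 lower and 2 higher, in place of 36 lower (29.6% with a pseudocount of 1). KO-LK against CT-HK gave 21, 19 lower and 2 higher, in place of 38 lower (36%). Fits without the filter test more genes; otherwise the cause was not tested.

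Of the 34 named genes followed through every alternative, 3 changed sign, none of them called in the count fit. Cox7a2l was at 0.034, 0.11 and 0.070 (log2) without TMM in KO-NK against CT-NK, KO-LK against CT-HK and knockout against control libraries. With limma on log2(TPM + 1) it was at 0.22, 0.37 and 0.30, Uqcrb at 0.051, 0.0074 and 0.029 and Atp5g2 at 0.036, 0.22 and 0.13, and with log2(TPM + 0.1) Cox7a2l was at 0.22, 0.38 and 0.30, Uqcrb at 0.051, 0.0074 and 0.029 and Atp5g2 at 0.036, 0.23 and 0.13. Atp5s, outside those 34, was at 0.28, 0.16 and 0.22 with limma on log2(TPM + 1), and Cox7b2 at 0.011 in knockout against control libraries.

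With the replicate block, 18 members were called in KO-NK against CT-NK (1.53% of all genes) and 26 in KO-LK against CT-NK (1.73%). Against CT-HK, 33 were called in KO-NK (4.52%) and 37 in KO-LK (4.16%). Both diet comparisons gave 0 (0%), and knockout against control libraries gave 38 (8.45%). The numbers did not pair the samples: of 33 same-number pairs, 9 correlated above 0.1 (range -0.70 to 0.69), and 2 of 23 libraries correlated best with their own number. Low counts limit Cox7b2 and the 5 members that the filter removed.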
